A study of Caenorhabditis elegans with 2 samples.

Results

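The genes described here are 8 of the 19973 protein-coding genes annotated on the nuclear chromosomes of Caenorhabditis elegans. They are the 5 actin genes act-1, act-2, act-3, act-4 and act-5 and the 3 muscle myosin light chain genes mlc-1, mlc-2 and mlc-3. They were chosen by name, with earlier results of these peak lists in view. For each gene, peaks were selected on the position of the summit, which had to lie between 2000 bp upstream of the annotated 5′ end and the end of the gene. The number of members with a peak, and the signal, rank and distance of those peaks, are therefore descriptions and were not tested.

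The data are chromatin immunoprecipitation with sequencing (ChIP-seq), which maps where a protein sits on the genome, for the nuclear hormone receptor NHR-77 fused to eGFP. The labels give the antibody only as nhr-77, while their description says that eGFP-nhr-77 was precipitated, so whether untagged NHR-77 also contributed cannot be told. Whole larvae of the L1 stage, the first after hatching, were used as 1 group with 2 biological replicates. All worms, of both sexes and of unstated age in hours, were of strain OP353 and carried the allele unc-119(tm4063) on chromosome III and the insertion wgIs353, which holds the tagged gene. There is no second genotype, stage or treatment to compare with, and the promoter driving the tagged copy is not given in the labels. Whole animals mix muscle, intestine, neurons and other tissues, so the lists cannot tell in which of them a site was occupied.

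Of the 4 lists in the ce11 build, the reproducible set of 2285 peaks is the one the authors thresholded by IDR. IDR, the irreproducible discovery rate, measures agreement between replicates. The pooled list held 13500 peaks, the replicate 1 list 21272 and the replicate 2 list 24201, and these were relaxed lists that include background. Member peaks in the reproducible set had the same rank in the pooled list, down to rank 1929. The set thus followed pooled rank at least that far. A peak in both replicate lists overlapped 2279 of its 2285 peaks. How the threshold was applied to single peaks is not given in the sources used here. The signal of a peak is the authors' own value. It ranks peaks within a list, with rank 1 the strongest, and was not compared between lists. The lists hold no read counts, so depth is unknown, and no interval for counting error can be given.

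Actin filaments are built from actin monomers, and in muscle they form the thin filaments on which myosin thick filaments pull. In C. elegans, act-1, act-2, act-3 and act-4 encode actins of muscle and other cells, and act-5 encodes the actin of the microvilli that line the intestine. A muscle myosin carries light chains on the neck of its heavy chain: mlc-1 and mlc-2 encode regulatory light chains of muscle, and mlc-3 encodes an essential light chain. Nuclear hormone receptors are transcription factors that bind DNA through zinc fingers, many of them under the control of a small lipophilic ligand.

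A reproducible summit lay in the window of 6 of the 8 genes, and act-3 and act-5 had none. The 6 genes held 7 such peaks, 1 each for act-1, act-2, act-4, mlc-1 and mlc-2 and 2 for mlc-3. By the same rule 13.0% of all protein-coding genes had a reproducible summit; this share is given as background only, because the members were chosen with these peaks known. Each summit with the 100 bases on either side of it is shown so that the sites behind the counts can be read. The sequences were taken from the RefSeq WBcel235 (ce11) sequence on the strand of the gene, 5′ to 3′. Capitals mark matches to TATAAA or GAGAGA, read on either strand; of the 5 motifs searched these were the ones found in the windows shown. The act-1 window is chrV:11080477-11080677 on the plus strand and the act-2 window is chrV:11078389-11078589 on the minus strand. The act-4 window is chrX:4962436-4962636, plus strand. For the light chains, the windows are chrX:17459003-17459203 on the plus strand for mlc-1, chrX:17456954-17457154 on the minus strand for mlc-2 and chrIII:5563824-5564024 on the plus strand for the upstream mlc-3 peak. The promoter peak of mlc-3 is shown over chrIII:5564861-5565021, plus strand, 161 bases that stop short of transcribed ends.
act-1: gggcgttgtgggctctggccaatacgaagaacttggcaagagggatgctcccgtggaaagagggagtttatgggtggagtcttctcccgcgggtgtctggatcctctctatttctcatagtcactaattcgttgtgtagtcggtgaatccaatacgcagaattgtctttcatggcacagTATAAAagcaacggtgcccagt
act-2: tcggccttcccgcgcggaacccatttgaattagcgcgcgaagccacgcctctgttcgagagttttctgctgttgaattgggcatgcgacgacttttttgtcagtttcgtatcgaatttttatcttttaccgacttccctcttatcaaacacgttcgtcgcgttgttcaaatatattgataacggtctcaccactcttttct
act-4: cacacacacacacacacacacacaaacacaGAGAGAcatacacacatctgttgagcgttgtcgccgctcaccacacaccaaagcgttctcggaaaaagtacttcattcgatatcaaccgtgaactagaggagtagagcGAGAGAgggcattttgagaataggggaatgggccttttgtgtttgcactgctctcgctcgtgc
mlc-1: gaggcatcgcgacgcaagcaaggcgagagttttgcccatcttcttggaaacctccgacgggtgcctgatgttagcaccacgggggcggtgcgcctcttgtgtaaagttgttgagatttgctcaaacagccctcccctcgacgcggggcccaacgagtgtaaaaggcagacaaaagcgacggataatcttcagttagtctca
mlc-2: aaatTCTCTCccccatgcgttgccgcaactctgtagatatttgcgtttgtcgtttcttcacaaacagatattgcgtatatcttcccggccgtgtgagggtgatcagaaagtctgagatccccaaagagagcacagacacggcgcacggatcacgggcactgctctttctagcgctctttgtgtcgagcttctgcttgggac
mlc-3: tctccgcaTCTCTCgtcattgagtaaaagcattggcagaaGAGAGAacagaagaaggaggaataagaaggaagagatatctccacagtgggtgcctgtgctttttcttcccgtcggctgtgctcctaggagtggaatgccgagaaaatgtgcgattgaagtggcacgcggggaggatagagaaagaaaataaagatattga
mlc-3 promoter: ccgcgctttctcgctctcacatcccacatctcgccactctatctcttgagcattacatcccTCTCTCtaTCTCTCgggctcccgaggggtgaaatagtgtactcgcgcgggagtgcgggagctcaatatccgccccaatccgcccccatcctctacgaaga

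The act-1, act-2 and act-3 genes lie next to each other on chromosome V, and act-1 (WBGene00000063, 11081052 to 11082415, plus strand) faces away from act-2 (WBGene00000064, 11076777 to 11078154, minus strand). Their 5′ ends are 2898 bp apart. A reproducible peak stood upstream of each gene. For act-1 the summit lay at -475 bp (upstream of the 5′ end), between protein-coding genes, with a signal of 93.4 and rank 1119 of 2285. In the replicate 1 list it had rank 973 (signal 57.7) and a distance of -470 bp, and in the replicate 2 list rank 1996 (signal 30.3) and a distance of -479 bp. The position was thus held within 9 bp, at -474 ± 6.36 bp (SD, n = 2), while replicate 2 placed the peak lower in its list.

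For act-2 the summit lay at -335 bp, with a signal of 89.8 and rank 1202. The replicates ranked it 1154 (signal 52.2) and 1184 (signal 40.7), the closest pair of ranks among the 7 peaks. Their summits were 55 bp apart, at -390 bp in replicate 1 and -335 bp in replicate 2. The windows of act-1 and act-2 overlap by 1103 bp, but no reproducible summit fell in the overlap. The summits of the act-1 and act-2 peaks were 2088 bp apart, and by the window rule neither was counted for both genes. Which gene either peak serves was not tested.

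act-3 (WBGene00000065, 11071690 to 11074498, minus strand) follows act-2 on the same strand, 2279 bp past the act-2 3′ end. Its window held 4 pooled peaks and none of them was reproducible. The strongest had a signal of 48.2 and rank 3015 of 13500, with ranks 3419 in replicate 1 (signal 25.3) and 4260 in replicate 2 (signal 20.9). Its summit lay 428 bp inside the gene, and the replicates put it at +466 and +433 bp. This is intron 1 of transcript T04C12.4.2, which is 1150 bp long, and exon 2 begins 806 bp further on, where transcript T04C12.4.1 starts. The other pooled summits of act-3 were at -1377 bp (signal 37.9), +1001 bp (signal 37.0) and -136 bp (signal 27.3). The site nearest the gene's outermost 5′ end was thus the weakest of the 4 in the pooled list. The +1001 bp summit, however, lay at -233 bp from the start of transcript T04C12.4.1. In replicate 2 a summit at -212 bp (signal 14.0, rank 13246) stood slightly above the weakest, at +1201 bp (signal 13.8, rank 13692).

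Annotated non-coding RNA genes crowd this locus. The act-1 summit lay inside T04C12.25 (plus strand) and T04C12.16 (minus strand), each 220 bp long, and the act-2 summit lay inside T04C12.18 (minus strand, 144 bp). The windows of T04C12.18, T04C12.23 and T04C12.28 also took in the act-1 summit, and those of T04C12.14, T04C12.24 and T04C12.25 the act-2 summit. The window of T04C12.21 took in the strongest pooled summit of act-3. Over the members, 2 of 7 reproducible summits (28.6%) lay inside a non-coding RNA gene, beside 248 of all 2285 (10.9%). Such genes cover 1.09% of the bases of the nuclear chromosomes.

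**Figure D1:**
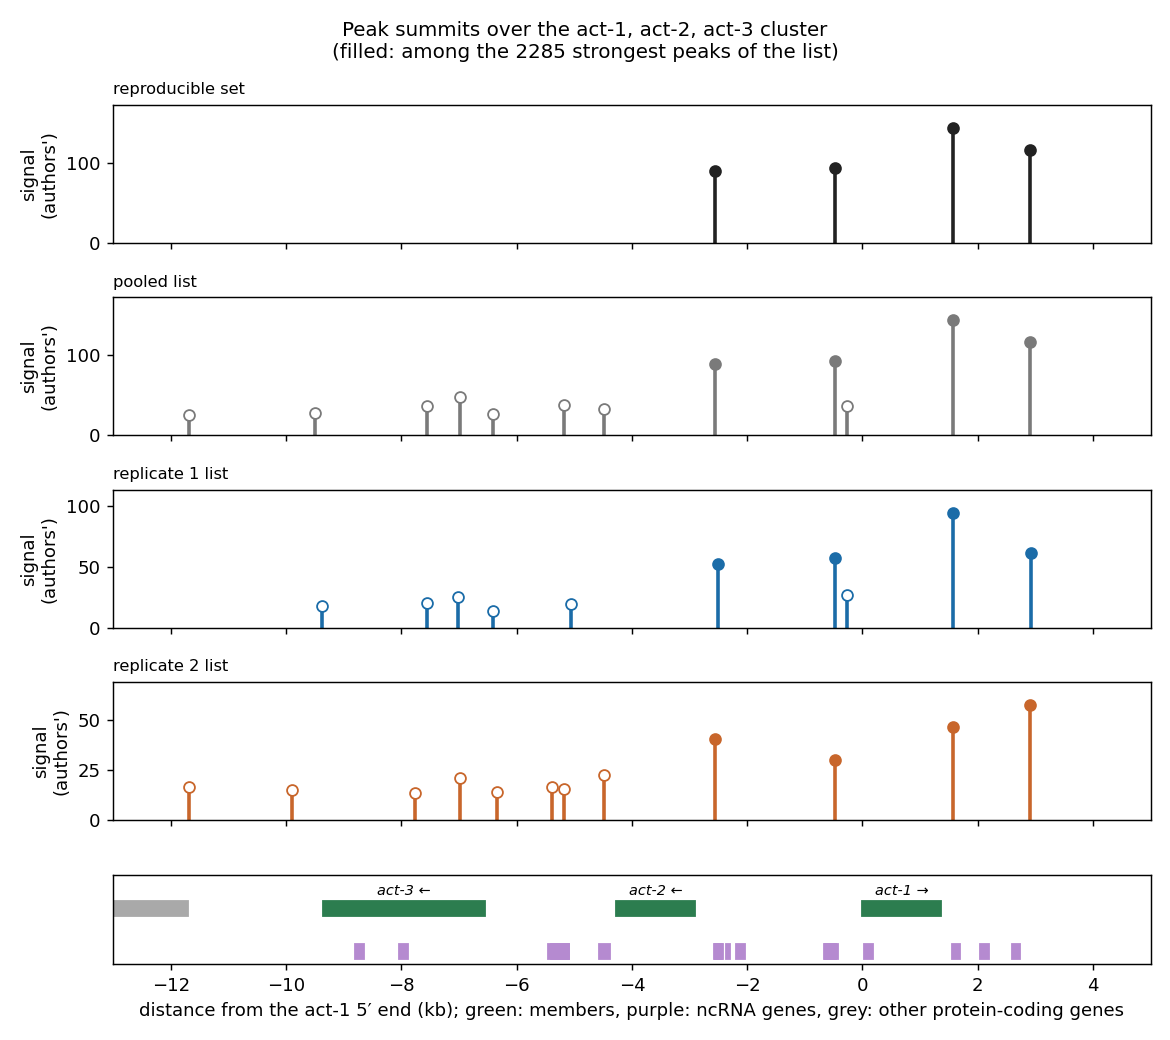
Peak summits over the act-1, act-2 and act-3 cluster, with distance from the act-1 5′ end in kb on the horizontal axis and the authors' signal on the vertical axis, 1 panel per list and 1 stem per summit, and the genes in the lowest panel. Filled points, which are among the 2285 strongest peaks of their list, stand upstream of act-1 and act-2 and past the act-1 3′ end in every list, and all stems over act-3 are open.

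Past the act-1 3′ end stood a further pair of reproducible peaks, which lie outside every member window and were picked out after their values were seen. The nearer, with its summit 207 bp past the 3′ end and inside the non-coding RNA gene T04C12.29, had a signal of 144 and rank 498. It ranked 368 in replicate 1 (signal 94.5) and 945 in replicate 2 (signal 46.8). The farther summit lay 1554 bp past the 3′ end, with a signal of 117 and rank 763, and ranked 872 in replicate 1 (signal 61.6) and 645 in replicate 2 (signal 57.5). Both had a higher signal than the act-1 and act-2 promoter peaks in the reproducible set, whose values the pooled list repeats, and in each replicate list. The next protein-coding gene, Y42A5A.1, begins 5533 bp past act-1, so these are peaks of the intergenic space beyond the cluster.

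act-4 and act-5 lie alone on other chromosomes and differed from the cluster and from each other. act-4 (WBGene00000066, chromosome X, 4960621 to 4964413, plus strand) had the highest signal of the 8 genes, 99.8 at rank 1006, but at a summit 1915 bp inside the gene. The replicates ranked this peak 690 (signal 69.3) and 1281 (signal 38.9), with summits at +1895 and +1993 bp, the widest gap (98 bp) among the 7 peaks. It lies in intron 1 of transcript M03F4.2a.1, an intron of 2081 bp, and 264 bp before exon 2. The shorter transcript M03F4.2b.1 starts at +2254 bp, so the same summit lies at -339 bp from that start. That annotated start is also its start codon, with no 5′ UTR. The peak at the longer transcript's own 5′ end (-80 bp) had a pooled signal of 50.3 and rank 2826 and was not reproducible. Further pooled summits were at +613 bp (signal 44.1), -1676 bp (signal 37.9, also in the window of M03F4.4) and +3650 bp (signal 24.9). Beyond the window, a reproducible peak of signal 108 and rank 874 stood at -3071 bp from act-4 and -132 bp from M03F4.4, which is the nearer gene.

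act-5 (WBGene00000067, chromosome III, 13604412 to 13606066, minus strand) had 3 pooled peaks and no reproducible one. Its annotated 5′ end is also its start codon, so its distances are measured from there. The strongest pooled summit lay at -433 bp, with a signal of 44.6 and rank 3387, and the second at +540 bp in an intron, with a signal of 40.4 and rank 3944. A further summit at -1966 bp (signal 34.4) fell in the 5′ UTR of the neighbour shpk-1, named after a sedoheptulose kinase, whose window also holds the -433 bp summit. The replicates disagreed on which site was stronger. In replicate 1 the upstream summit (-485 bp) ranked 4092 and the intronic one 11058. In replicate 2 the intronic summit (+544 bp) ranked 3307 and the upstream one (-460 bp) 6718. Both sites were thus in both lists, with their order turned round, but these lists include background. The lower-ranked entry had a deposited −log10 q, where higher is more certain, of only 0.151 in replicate 1 and 0.275 in replicate 2. The higher-ranked entry was weak too, at 0.952 in replicate 1 and 0.742 in replicate 2. For the other 7 genes both replicates had their strongest peak within 98 bp of each other.

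**Figure D2:**
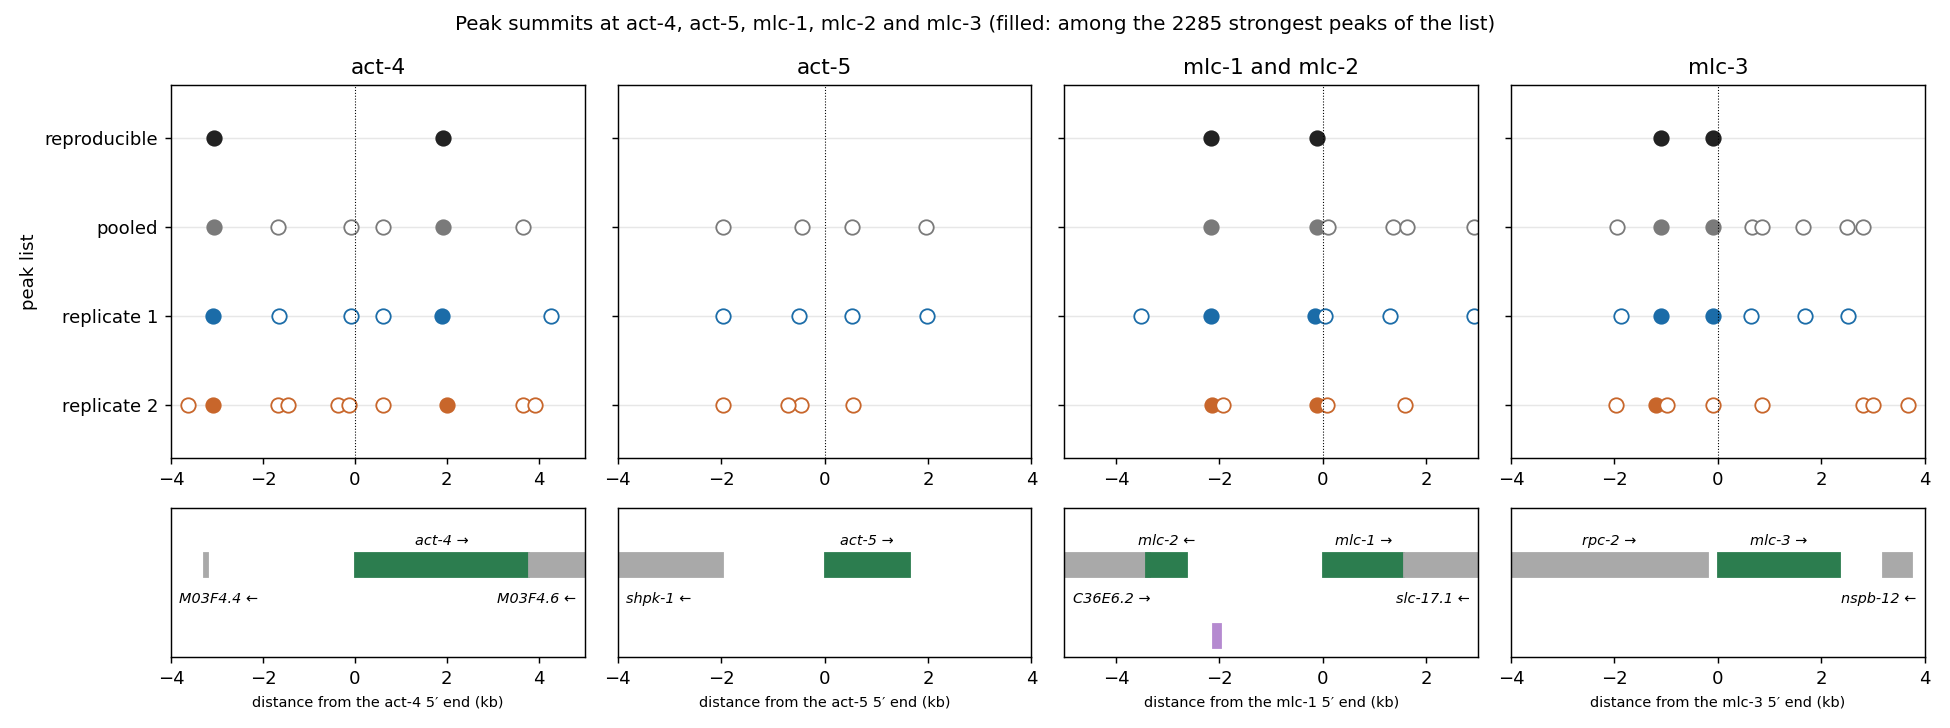
Peak summits at act-4, act-5, the mlc-1 and mlc-2 pair and mlc-3, with distance from the 5′ end of the named gene in kb on the horizontal axis and the 4 lists as rows; genes are drawn below, members in green, other protein-coding genes in grey and a non-coding RNA gene in purple. The filled points, among the 2285 strongest of their list, fall inside act-4 and at -3071 bp from it, upstream of mlc-1, mlc-2 and mlc-3, and nowhere at act-5; the replicate 2 point at the mlc-3 promoter is open.

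mlc-1 and mlc-2 are also neighbours that face away from each other, on chromosome X, with 5′ ends 2624 bp apart. mlc-1 (WBGene00003369, 17459210 to 17460778, plus strand) had its reproducible summit at -107 bp, with a signal of 79.2 and rank 1468. The replicates ranked it 1384 (signal 47.2) and 1551 (signal 34.8), at -153 and -114 bp. mlc-2 (WBGene00003370, 17455792 to 17456586, minus strand) had its summit at -468 bp, with a signal of 79.1 and rank 1475. It ranked 1594 in replicate 1 (signal 43.2) and 1762 in replicate 2 (signal 32.5), at -464 and -474 bp. The pair had nearly equal signals in the reproducible set and in each replicate, at summits 2049 bp apart. Their windows overlap by 1377 bp, and the only summit in the overlap was a replicate 2 peak of rank 9005. The mlc-2 summit was also in the windows of the non-coding RNA genes C36E6.11 and 21ur-14151, and inside neither.

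mlc-3 (WBGene00003371, chromosome III, 5565025 to 5567382, plus strand) was the one member with 2 reproducible peaks. The stronger, with a signal of 94.7 and rank 1101, lay at -1101 bp in an intron of rpc-2, which encodes a subunit of RNA polymerase III and whose window holds it as well. It ranked 1051 in replicate 1 (signal 55.1) and 1387 in replicate 2 (signal 37.3), with summits at -1098 and -1188 bp. The weaker lay at the promoter, at -84 bp, with a signal of 66.5 and rank 1929. Its summits agreed within 2 bp (-86 and -88 bp), the closest of the 7, and it ranked 1749 in replicate 1 (signal 40.5) and 2693 in replicate 2 (signal 25.7). Replicate 2 thus left the promoter peak outside its 2285 strongest, the only such case among the 7 peaks. In that list an intronic mlc-3 summit at +850 bp (signal 26.4, rank 2567) stood above the promoter peak. Of the 7, the rpc-2 peak was the only one that another protein-coding gene's window also held, and none was in the windows of 2 members.

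For the 7 reproducible peaks, positions in the replicates were compared only for replicate peaks that overlapped the reproducible peak. Small gaps between the replicates were thus partly fixed in advance. Their summits for the 7 peaks differed by 2 to 98 bp with a median of 39.0 bp, beside a median of 27 bp (highest 357 bp) over the 2279 reproducible peaks found in both lists. By number, all 7 peaks ranked higher in the replicate 1 list than in the replicate 2 list. Counted as a percent of each list's length, 4 of the 7 did, those of act-1, act-4 and mlc-3. All 8 genes had a peak in the pooled list and in both full replicate lists. Such a peak was common, since 45.9% of protein-coding genes had one in the pooled list, 60.2% in the replicate 1 list and 65.8% in the replicate 2 list. With each replicate's 2285 strongest peaks alone, the same 6 genes had a summit, beside 13.0% of all genes in replicate 1 and 12.6% in replicate 2. This is no separate support, because the reproducible set was made from these same replicates.

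**Figure D3:**
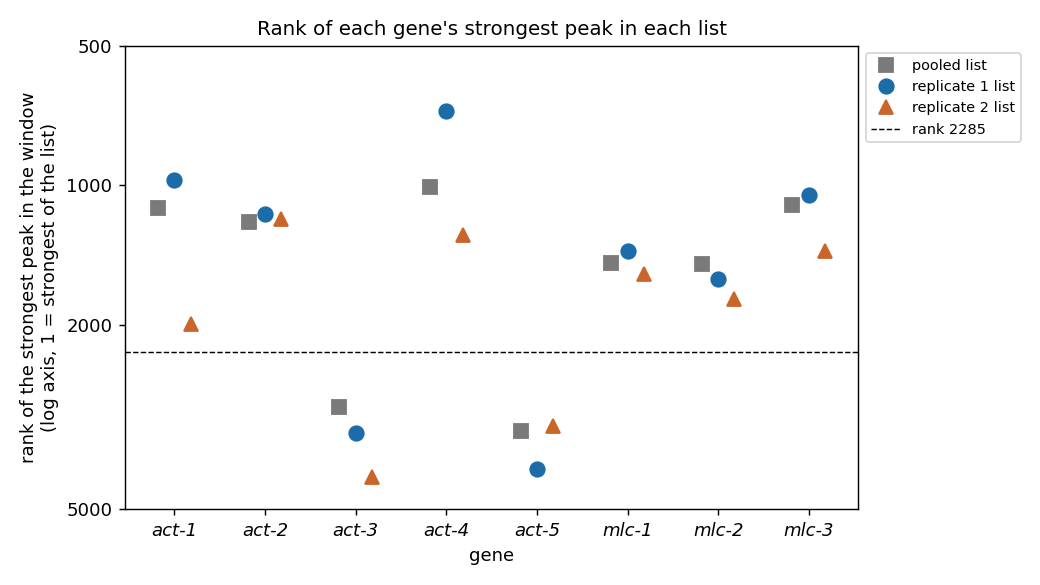
Rank of the strongest peak in each gene's window, on a reversed log axis with 1 as the strongest peak of the list, for the pooled list (squares), replicate 1 (circles) and replicate 2 (triangles). The 6 genes with a reproducible summit lie above the dashed line at rank 2285 in all 3 lists, and act-3 and act-5 lie below it in all 3. Each reproducible member peak has the same rank in the pooled list, so the pooled points repeat that choice. The replicate points are not independent of it either, because the set was made from both replicates.

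By signal the members sat in the middle and lower part of the reproducible set. Their 7 peaks ran from 66.5 to 99.8 with a median of 89.8, and all 2285 from 58.7 to 809 with a median of 92.4. Among the 2598 protein-coding genes with a reproducible summit, ordered by the strongest, act-4 was at place 1269, mlc-3 at 1373, act-1 at 1394, act-2 at 1492, mlc-1 at 1786 and mlc-2 at 1795. The lowest signal in the reproducible set was 58.7. The weakest member peak in the set was the mlc-3 promoter peak (66.5), and the strongest one outside it was the act-4 peak at -80 bp (50.3). When only the 1143 strongest reproducible peaks were kept, act-1, act-4 and mlc-3 still had one, 3 of 8, beside 7.12% of all genes.

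In position, 4 of the 6 genes (act-1, act-2, mlc-1 and mlc-2) had their strongest summit within 500 bp upstream of the 5′ end, mlc-3 had it beyond 1000 bp upstream and act-4 had it downstream. Over the 2598 genes with a reproducible summit these shares were 48.4%, 21.2% and 18.8%, with a median distance of -260 bp. In a window of 1000 bp upstream to 250 bp downstream, 5 of 8 members had a reproducible summit, since act-4 dropped out, beside 8.60% of all genes. Counting each peak only for the nearest 5′ end kept 6 of 8, beside 8.34%. With 5000 bp upstream the count was 7, because the act-3 window then reached the act-2 peak, beside 18.6% of all genes. Of the 7 member summits, 5 lay between protein-coding genes and 2 were intronic (act-4 and rpc-2), and none fell in a coding exon or UTR. These classes leave out non-coding RNA genes, which hold the act-1 and act-2 summits.

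**Figure D4:**
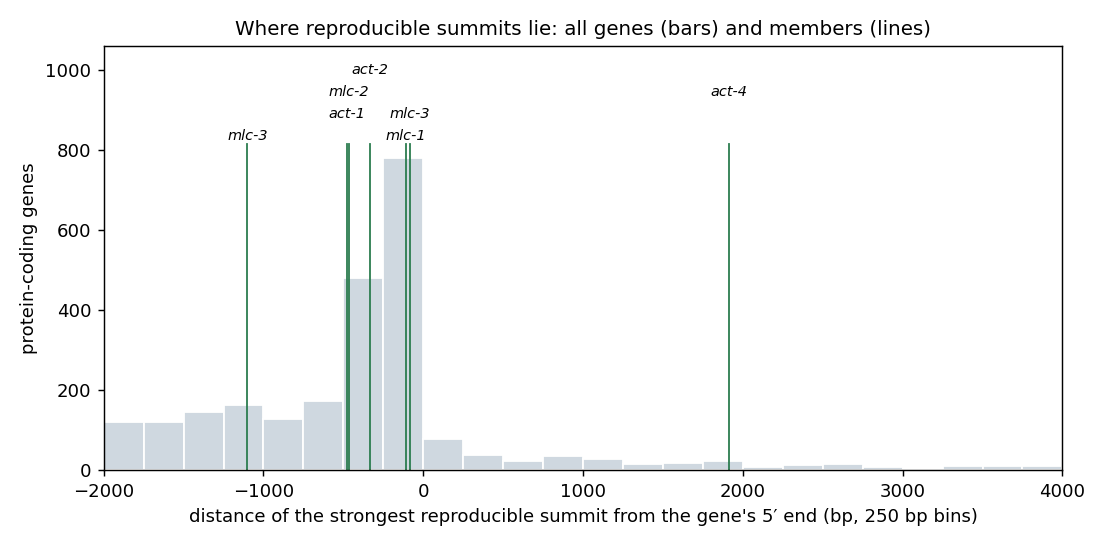
Distance of the strongest reproducible summit from the 5′ end for protein-coding genes (bars, 250 bp bins, genes per bin; those beyond 4000 bp are not drawn) with the member summits as green lines, both peaks for mlc-3. act-1, act-2, mlc-1, mlc-2 and the mlc-3 promoter peak stand among the tallest bars just upstream of the 5′ end, and act-4 stands alone at +1915 bp.

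The actin coding sequences are close to each other. act-1 and act-3 had identical coding sequences (1128 of 1128 bases), yet act-1 had a reproducible promoter peak and act-3 none. act-2 matched both of them at 96.2% of bases, and act-4 matched act-1 and act-3 at 94.1%. act-5 was the most distant actin, at 82.5% to 85.3%. Among the light chains, mlc-1 and mlc-2 matched at 96.7%, and mlc-3 matched them at 51.2% to 52.4%. Between the summit windows of any pair compared, the longest shared run was 7 to 9 bases. In the coding sequences the longest run was 1128 bases for act-1 and act-3 and 83 for mlc-1 and mlc-2, but only 11 and 12 for mlc-3 against mlc-1 and mlc-2. Percent identity was not computed for the summit windows. A read from within the coding part of act-1 or act-3 can match both genes equally, and how the authors placed such reads is not given in the sources used here.

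Summit windows of the members, each the summit and 100 bases on either side (the pooled summit for act-3 and act-5), had a GC content of 37.3% to 55.2% with a median of 49.3% over 9 windows, against a median of 43.8% over all reproducible windows. The 5 motifs were each searched on both strands; the percentages are the shares of reproducible windows and of windows of that length directly upstream of all genes, in that order. AGGTCA, a motif bound by many nuclear receptors, was in none of the 9 windows, and in 5.56% of reproducible windows and 5.98% of windows of the same length upstream of all genes. CAGCTG was in none of the 9 (6.0% and 3.45%), and TGACGT in none (8.27% and 6.93%). TATAAA was in 2, at act-1 and act-5 (12.0% and 30.5%). GAGAGA was in 4, at act-4, mlc-2 and both mlc-3 peaks (44.9% of reproducible windows and 16.4% of upstream windows). In the printed windows the act-4 copies start 70 bp before and 38 bp after the summit, and the mlc-3 promoter copies 19 and 11 bp before it. A match is a run of letters and not a shown binding site, and 9 windows are few against these shares.

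The other genes of the actomyosin machinery were read from lists chosen for their roles. Of 53 listed genes in the annotation, 15 (28.3%) had a reproducible summit in the window, beside 13.0% of all genes. Their windows are longer, with a median of 5953 bp against 4027 bp for all genes and 3612 bp for the members. In the window of 1000 bp upstream to 250 bp downstream the count fell to 7 (13.2%), beside 8.60%. With the 1143 strongest reproducible peaks it was 3 (5.66%), below the 7.12% of all genes. That order hangs on where the cut falls, since unc-94 (rank 1145) and cap-1 (rank 1153) lay just past it. Among thick filament genes 4 of 8 had a summit: myo-1 (64.9) and myo-2 (62.1), which encode myosin heavy chains of the pharynx, unc-89 (61.6), a giant protein of the M-line, and unc-45 (62.4), a myosin chaperone. All 4 signals were below the weakest member peak. The body wall myosin genes unc-54 and myo-3 and the paramyosin gene unc-15 had none.

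Among thin filament genes 4 of 12 (33.3%) had a summit, beside 13.0% of all genes. The strongest peak of lev-11, which encodes tropomyosin, had a signal of 100.1, next to that of act-4. Like the act-4 summit it was intronic, at +2966 bp. The others were unc-94 (92.4), a tropomodulin, tni-4 (87.0), a troponin I, and tnt-4 (62.5), a troponin T, and none of the 4 was in the narrower window. Of the dense body and M-line genes, which anchor the filaments, 2 of 10 (20.0%) had a summit, beside the same 13.0%. The summits of deb-1 (vinculin, 69.4) and dim-1 (84.2) were intronic, and neither was in the narrower window. Of the actin turnover and nonmuscle actomyosin genes 4 of 20 (20.0%) had a summit. These were the capping protein genes cap-2 (202, at -247 bp) and cap-1 (92.0, at -185 bp), the cofilin gene unc-60 (103, at -438 bp) and the nonmuscle myosin gene nmy-2 (78, at -1484 bp). Each of the 4 shared its peak with a neighbour, gmps-1, D2024.4, F53E2.2 and T22C1.1 in that order. Of the 3 brush border partners of act-5, erm-1, an ezrin-type linker of membrane and actin, had a summit at -397 bp (78.7), while act-5 itself had none.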

How the data were processed

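Peak lists of 2 biological replicates of 1 group were used as the authors deposited them; per the deposited notes they derive from alignments and a control, which was not analysed here. The deposited signal of each peak ranked peaks within a list, the deposited −log10 q value broke ties, and the deposited summit offset gave the position. The names and versions of the aligner and caller, the IDR cut-off and the depth were not given in the sources used here. The ce11 lists were read with Python 3.11.15 against the WBcel235 sequence (RefSeq) and Ensembl release 115; the ce10 lists gave only totals (2229 reproducible peaks), and no coordinates were converted.

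Peaks were assigned to genes by summit, a step checked on simulated summits. The members, gene lists and motifs were chosen with earlier results of these data known, so no p-value was computed. Genes named are the members, genes whose window holds a member's reproducible summit (or strongest pooled summit where there is none), and up to 5 called genes per list; the peaks past act-1, the peak upstream of act-4, other weaker peaks and their neighbours, and listed genes without a peak were added after values were seen. The listed name tmd-1 was not in the annotation. Alternatives were other windows, the stronger peaks, nearest-gene assignment, interval overlap and each replicate alone.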

Additional observations from a re-analysis of the deposited data

How the results depend on the processing

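Of 64 recomputed values, 34 were classed as the same as the main one, 29 as moved and 1 changed sign. The classes are coarse for counts: all genes with a summit went from 2598 to 3721 with 5000 bp upstream, classed as the same. With the stronger 1143 reproducible peaks, 3 members, 3 listed genes (5.66%) and 1423 of all genes (7.12%) had a summit, against 28.3% and 13.0% with the whole set; the 1000 bp upstream to 250 bp downstream window gave 7 listed genes and 1717 genes, and nearest-gene assignment gave 1665 genes. These alternatives use fewer peaks, narrower windows or 1 gene per peak by construction. The members' median rank as a percent of the list was 9.90 in the pooled list and 5.96 to 6.85 with 1 replicate alone, in lists that are longer. Their median distance was -384 bp, and -427 to -224 bp with 1 replicate alone. Without replicate 1, the strongest act-5 summit moved from -433 to 544 bp, and without replicate 2 it was at -485 bp; the cause was not tested. All 6 members with a reproducible summit kept one with either replicate left out. That was largely fixed in advance, because the reproducible set was made from the same 2 replicates. No paired analysis was possible because there is 1 group and no result comes from a test. With unknown depth and 2 replicates, an absent reproducible peak at act-3 or act-5 says only that none passed the authors' threshold.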

Other observations

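Other myosin light chain genes, which fall outside the 8 genes, had peaks in the relaxed lists only or none. mlc-4, which encodes the regulatory light chain of nonmuscle myosin, had a strongest pooled signal of 29.5 (rank 7552, +1211 bp), no peak in replicate 1 and a strongest rank of 12013 of 24201 in replicate 2. mlc-5, an essential light chain, had 24.3 (rank 12341 of 13500 pooled peaks), while its strongest replicate 2 peak had a signal of 16.7 and rank 7964 of 24201, and mlc-6 had a pooled signal of 24.6 (rank 11979). mlc-7 had no peak in any list, and none of these genes had a reproducible summit.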
